A study of Mus musculus with 8 samples.

Results

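Cited1, Cited2 and Cited4 encode small nuclear coactivators, and Crebbp and Ep300 encode CBP and p300, the acetyltransferases to which the Cited proteins bind. The 5 genes were followed through every probe set whose annotation names one of them and no other gene, which gave 6 of 22626 probe sets: 1 for Cited1, 2 for Cited2, 2 for Cited4, 1 for Crebbp and 0 for Ep300. The set was chosen by the signal of Cited1, which read far higher in knockout than in wild-type cells, so differences between genotypes in these 5 genes are given as a description with no test, while the response to serum, which was not used in the choice, was tested.

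Expression was measured on 8 mouse arrays, 1 for each sample, from embryonic fibroblasts taken at embryonic day 11 and carried in culture past crisis, after which the surviving cells grow without limit. Cells were wild type (WT) or Med23-/- (KO), the latter without MED23, a subunit of Mediator, which passes signals from transcription factors to the polymerase. All cells were starved for 16 h in 0.5% serum; in each genotype 2 arrays were of cells kept starved and 2 of cells then given 20% serum for 30 min. The study asked which genes respond differently to serum without MED23. The labels do not say how many lines or clones stand behind a genotype, nor whether replicates were separate cultures, so genotype and line cannot be told apart and p-values measure only the spread between these samples. Slide and scan batches are not known here.

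Cited proteins do not bind DNA. Through a conserved C-terminal region they bind a zinc-binding domain of CBP and p300, and by doing so they can bring these acetyltransferases to transcription factors such as TFAP2 and SMAD proteins, or, as CITED2 does with hypoxia-inducible factors, compete with a factor for the same surface. CBP and p300 acetylate histones and other proteins at enhancers and promoters, and CBP was first known as the partner of phosphorylated CREB. In the embryo Cited1 is known from kidney progenitors, melanocytes and placenta, and Cited2 from the heart, adrenal gland and neural tube.

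The starts of Cited1 and Cited2 are shown because these genes differed most between groups, Cited1 between genotypes and Cited2 in the response to serum. All 5 genes matched the RefSeq table of GRCm38.p6, with 3 start sites for Cited1 and 1 for each of the others. Each sequence holds the 250 bases before the start, for Cited1 the most upstream one, read 5′ to 3′ on the gene's strand. Capitals mark matches on either strand to the motifs searched for.
Cited1, chrX:102252182-102252431, minus strand: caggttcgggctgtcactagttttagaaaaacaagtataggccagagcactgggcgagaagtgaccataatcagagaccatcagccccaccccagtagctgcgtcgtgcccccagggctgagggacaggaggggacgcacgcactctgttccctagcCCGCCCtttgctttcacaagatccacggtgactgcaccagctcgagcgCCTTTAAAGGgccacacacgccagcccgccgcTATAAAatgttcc
Cited2, chr10:17722978-17723227, plus strand: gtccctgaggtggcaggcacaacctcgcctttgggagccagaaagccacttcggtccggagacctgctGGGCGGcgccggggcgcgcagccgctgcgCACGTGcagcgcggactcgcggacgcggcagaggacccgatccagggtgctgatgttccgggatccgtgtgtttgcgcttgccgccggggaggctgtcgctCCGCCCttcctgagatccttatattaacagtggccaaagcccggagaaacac

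In the Cited1 window the capitals were, from the left, a GC box (GGGCGG, here on the opposite strand), a CArG box, the A/T-rich element that serum response factor recognises, and a TATA box (TATAAA). They begin 93, 45 and 13 bases before the start. Of 32851 windows of the same length in the table, 32.7% held a GC box, 1.47% a CArG box and 12.4% a TATA box. The Cited2 window held 2 GC boxes, at 182 and 52 bases, and the palindrome CACGTG, which contains the hypoxia response core ACGTG on both strands as 2 overlapping matches. That core was found in 16.6% of windows. Neither window shown held CCAAT (33.8% of windows), the short CREB site TGACG (17.8%), its full palindrome TGACGTCA (1.55%) or the AP-1 site TGANTCA (6.75%). GC content was 58% for Cited1 and 66.8% for Cited2, against a median of 52.4% over all windows. The windows of the other Cited1 starts differed: the next one held a TATA box, a CCAAT box and a hypoxia response core, and the last the short CREB site. These matches describe the letters in the windows and show no binding.

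Cited1 was near the bottom of the arrays in wild-type cells and near the top in knockout cells. Its signal was 41.3 and 54.4 in starved wild-type cells and 47.4 and 44.1 after serum, between the 10.7th and 12.9th percentile of each array. In knockout cells it was 15987 and 13005 when starved and 10960 and 9712 after serum, between the 91.7th and 96.1th percentile. All 4 knockout arrays lay above all 4 wild-type arrays. The difference between genotypes was 7.83 in starved cells and 7.39 after serum on the scale of log2(signal + 16). Wild-type signals this low carry little information, and these differences depend on the added constant: with a constant 16 times as large the differences were 5.59 and 5.13. The lowest knockout signal was still 26.9 times the highest 40th percentile of the starved wild-type arrays, and 19.9 times after serum. Cited1 passed the filter on low signals, set at the 40th percentile of each array and to be met on 2 or more, only through its knockout arrays. In RNA from whole cultures, fewer cells that express a gene and less RNA per cell cannot be told apart.

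**Figure D1:**
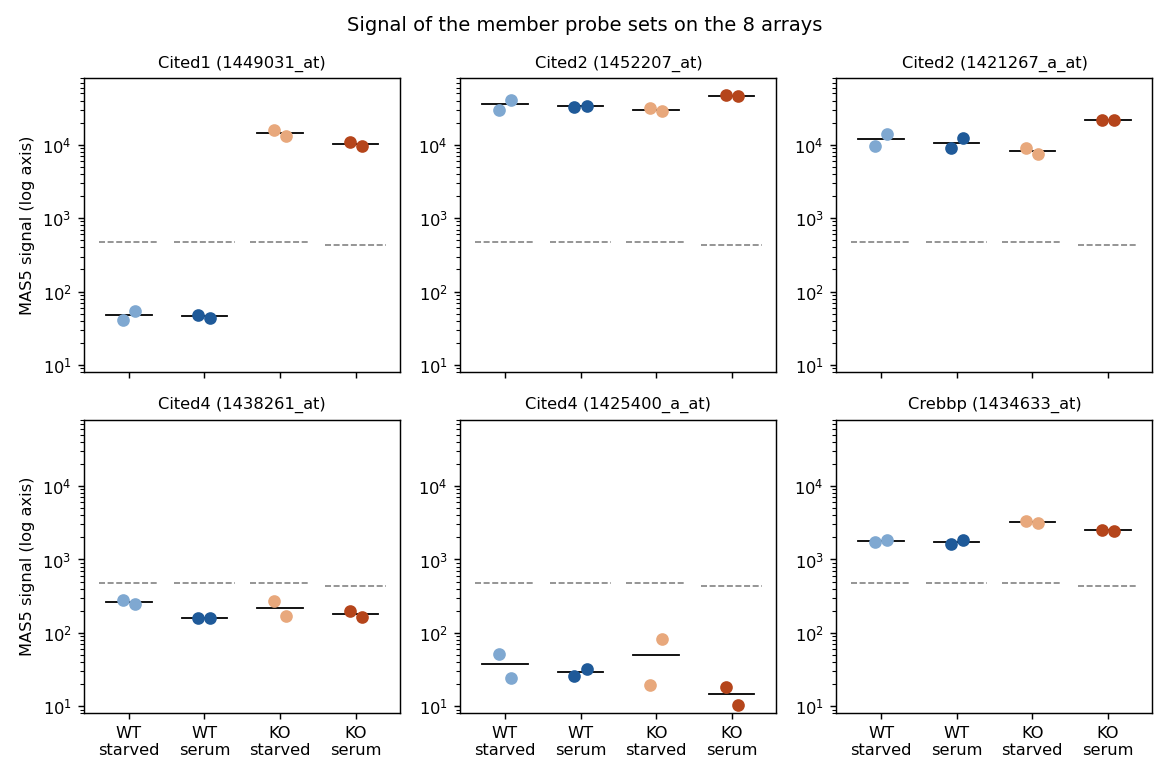
Signal of each probe set of Cited1, Cited2, Cited4 and Crebbp on every array (log axis); points are arrays, the black bar is the mean of the 2 arrays of a group, and the dashed grey line is the mean 40th percentile of that group's arrays. Cited1 lies below the dashed line in wild-type cells and between 9712 and 15987 in knockout cells, Cited4 lies below it throughout, and both Cited2 probe sets are highest in stimulated knockout cells.

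A response of Cited1 to serum could be measured in knockout cells only, since its wild-type signals lay too low for a change to show, and no interaction is given for it. In knockout cells both stimulated arrays read below both starved ones, as for 41.1% of tested probe sets, a change of -0.48 ± 0.199 (SE) with a 95% interval of -0.93 to -0.04, which did not pass the test (limma adjusted p = 0.109). The call depended on settings: the adjusted p was 0.033 with an added constant 16 times as large and 0.0357 when only knockout arrays entered the fit, and ranged from 0.033 to 0.417 over 18 alternatives.

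Cited2, which is itself induced by growth factors and hypoxia in many cells, rose with serum in knockout cells on both of its probe sets. On the dimmer probe set the signal was 9595 and 14142 in starved and 9006 and 12421 in stimulated wild-type cells. In knockout cells it was 9154 and 7514 when starved and 21696 and 21401 after serum. The wild-type groups overlapped, and the stimulated knockout arrays lay above the other 6; stimulated arrays lay above starved ones for 21.4% of tested probe sets. The change in knockout cells was 1.38 ± 0.197 (SE), or 2.59-fold on the scale with the added constant, with limma adjusted p = 0.00107 and an interval of 0.94 to 1.81. In wild-type cells it was -0.14 ± 0.197 (adjusted p = 0.780; interval -0.58 to 0.30). The interaction, which is the response in knockout minus that in wild-type cells, was 1.51 ± 0.279 (adjusted p = 0.0217; interval 0.89 to 2.13).

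On its brighter probe set the same gene gave a smaller response. Its signal was 29724 and 41302 in starved and 32658 and 34135 in stimulated wild-type cells, and 31175 and 29107 in starved and 47046 and 46192 in stimulated knockout cells. Here too the wild-type groups overlapped and the stimulated knockout arrays were the highest. The change in knockout cells was 0.63 ± 0.136, or 1.55-fold (adjusted p = 0.00931; interval 0.33 to 0.93), and in wild-type cells -0.07 ± 0.136 (adjusted p = 0.849; interval -0.37 to 0.23). The interaction of 0.70 ± 0.193 did not pass the test (adjusted p = 0.0884; interval 0.27 to 1.13), so the gene's different response in the genotypes rests on 1 of its 2 probe sets.

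Leaving out 1 array ended some of these calls. The interaction on the dimmer probe set no longer passed without starved wild-type array 2 (1.24, adjusted p = 0.0553), starved knockout array 2 (1.37, adjusted p = 0.0630), stimulated wild-type array 1 (1.28, adjusted p = 0.0686) or stimulated knockout array 1 (adjusted p = 0.0944) or 2 (1.52, adjusted p = 0.0764). Over 17 alternatives its adjusted p ranged from 0.0135 to 0.0944, and its size stayed between 1.24 and 1.79. The rise on the brighter probe set in knockout cells was lost without stimulated knockout array 1 (0.62, adjusted p = 0.0663) or 2 (0.64, adjusted p = 0.0533). The interaction on that probe set passed without starved wild-type array 1 (0.94, adjusted p = 0.0135). The rise on the dimmer probe set in knockout cells passed under all 18 alternatives run, with values from 1.23 to 1.53.

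The labels number the arrays of each group as sets 1 and 2. Within the sets, the knockout change of the dimmer probe set was 1.24 in set 1 and 1.51 in set 2, and that of the brighter one 0.59 and 0.67. In wild-type cells the same changes were -0.09 and -0.19 for the first probe set, and 0.14 and -0.27 for the second. The response in knockout cells thus exceeded the wild-type one in both sets. Set numbers were not taken to pair the samples, so these values regroup the same arrays and are no separate evidence.

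Between genotypes, the order of the Cited2 groups turned with serum. Starved knockout cells read lower than starved wild-type cells on the dimmer probe set, by -0.49, with the groups apart as for 37.3% of tested probe sets, and by -0.22 on the brighter probe set, where the arrays overlapped. After serum they read higher, by 1.03 and 0.48, with the groups apart on both, as for 35.9% of tested probe sets. The negative value on the brighter probe set was 0.02 without starved wild-type array 2. These genotype values share arrays with the serum comparisons and are no separate evidence.

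Crebbp, the gene of CBP, was moderately higher in knockout cells. Its signal was 1718 and 1841 in starved and 1610 and 1867 in stimulated wild-type cells, and 3315 and 3163 in starved and 2554 and 2467 in stimulated knockout cells. The order of the groups was starved knockout, stimulated knockout and then both wild-type groups, which overlapped. The genotype difference was 0.86 in starved and 0.53 in stimulated cells, ratios of mean signal of 1.82 and 1.44. Groups that far apart are common here: arrays of the genotypes did not overlap, with knockout higher, for 36% of tested probe sets in starved and 35.9% in stimulated cells. Serum changed Crebbp by -0.04 ± 0.137 (SE) in wild-type cells (limma adjusted p = 0.932; interval -0.34 to 0.27). In knockout cells the value was -0.37 ± 0.137 (adjusted p = 0.0807, interval -0.67 to -0.06). Both stimulated arrays were lower there, as for 41.1% of tested probe sets. The interaction was -0.33 ± 0.193 (adjusted p = 0.394).

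Cited4 stayed below the 40th percentile on all 8 arrays with both probe sets and was not tested. The brighter probe set read 280 and 245 in starved and 159 and 159 in stimulated wild-type cells, and 268 and 170 in starved and 198 and 166 in stimulated knockout cells. The dimmer one read between 10.6 and 81.9, both extremes on knockout arrays. Signals at this depth in the range have no reliable order, and no level is drawn from them. For Ep300, the gene of p300, no probe set named it alone, and it was not analysed here.

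Of the 3 member probe sets that passed the filter in wild-type cells, those of Cited2 and Crebbp, limma called 0 for serum there, with 0 at an unadjusted p under 0.05, while 4.14% of all tested probe sets were called. For serum in knockout cells it called 2 of 4, both of Cited2, against 23.1% of all tested probe sets, of which 1395 of 3455 were higher, or 9.33% of those tested. For the interaction it called 1 of 3, which was higher, against 2.69% called in either direction and 1.61% called higher. With the arrays centred on their medians, the calls over all probe sets in knockout cells split as 1955 higher of 2947, and for the interaction as 353 higher of 461 where the deposited scaling gave 241 of 402. The median change over all tested probe sets was -0.05 for serum in wild-type and -0.13 in knockout cells. Centring moved the knockout changes to 1.53 and 0.79 for Cited2, to -0.33 for Cited1 and to -0.21 for Crebbp, with no change of sign or call.

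**Figure D2:**
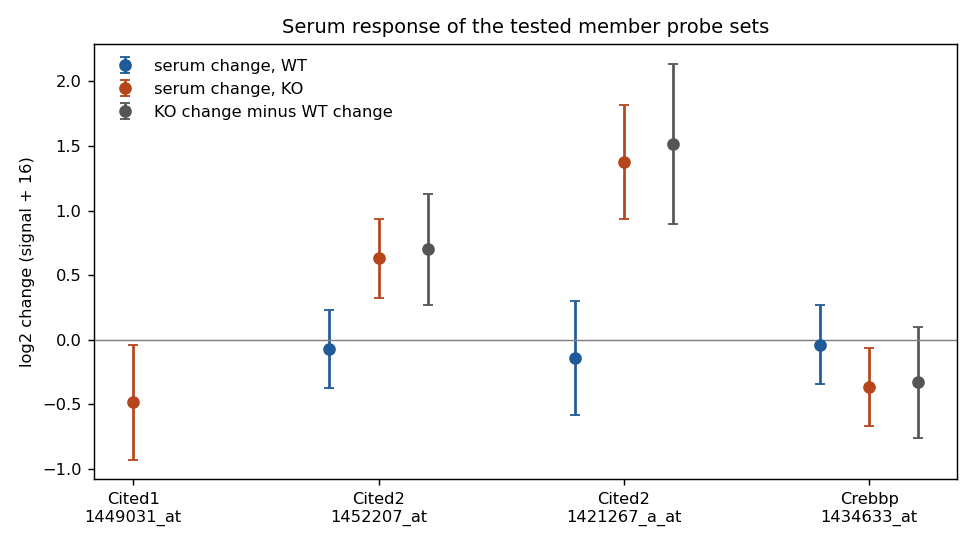
Change with serum in wild-type and knockout cells and the interaction (log2 scale), for the tested probe sets of Cited2 and Crebbp, and for Cited1 in knockout cells only; points are estimates from 2 arrays a group and lines are unadjusted 95% intervals. Both Cited2 probe sets lie above 0 in knockout cells (1.38 and 0.63) and span 0 in wild-type cells.

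Among factors that bring CBP and p300 to DNA, Cebpb and Srf rose with serum in both genotypes and most others were not called in wild-type cells. Of 35 listed, 32 were on the array and 23 tested. Serum raised 8 and lowered 3 in knockout cells, where 23.1% of all tested probe sets were called, with a list median of 0.28 against -0.13 for all tested probe sets. In wild-type cells, where 4.14% of all were called, it raised 2 and lowered 1, with a median of 0.10 against -0.05. Cebpb, a bZIP factor of immediate responses, went from a mean of 6126 to 27974 in knockout cells (2.19 ± 0.137, limma adjusted p = 3.98e-06) and from 8126 to 14364 in wild-type cells (0.83 ± 0.137, adjusted p = 0.00715). Atf4, the factor of the integrated stress response, rose by 1.04 ± 0.10 in knockout cells (adjusted p = 8.5e-05). Srf, the factor of the CArG box, rose by 1.58 in wild-type and 1.29 in knockout cells, and Tfap2a, a known partner of CITED proteins, fell on its brightest probe set by 0.78 in wild-type and 1.18 in knockout cells. A second Tfap2a probe set was called in knockout cells alone, at -0.81, and the remaining one in neither genotype. The interaction called Cebpb (1.36) and Atf4 (0.92) higher and Smad3 (-1.11), a TGF-beta effector, lower. Over all tested probe sets it called 2.69%, and 1.61% were called higher. The knockout count of 8 was 5 without stimulated knockout array 1. In wild-type cells, 1 rose without starved array 2 or stimulated array 1, 4 rose without either starved knockout array, and 0 fell without starved array 1 or either stimulated array. For the interaction, 1 was higher without stimulated wild-type array 2, or stimulated knockout array 1 or 2, and 0 were lower without starved wild-type array 2 or any stimulated array.

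The same list differed between genotypes in both directions, with 7 of 23 higher and 7 lower before serum in knockout cells, and 8 higher and 6 lower after it. Of all tested probe sets, 47.6% were called in starved and 50.2% in stimulated cells. Tfap2b, a paralogue of Tfap2a, read 34.4 to 158 on the wild-type arrays, all below the filter, and 4624 to 6779 on the knockout arrays, through which alone it entered the test. Tcf7l2, a Wnt pathway factor, was higher in knockout cells by 2.31 and 2.59 on its brightest probe set, and Ets2 was lower by -2.17 in starved cells, and these values passed the test. Another Tcf7l2 probe set gave 1.69 in starved cells (limma adjusted p = 0.0703) and -0.59 after serum (adjusted p = 0.511). Its remaining probe sets were called higher in both states. The products of Hif1a and Epas1 compete with CITED2 for CBP and p300, and both genes were chosen here after their values were seen. Hif1a had means of 7994 in wild-type and 11945 in knockout cells when starved, and 8029 and 14201 after serum. Epas1 had means of 146 and 1348 when starved and 86.2 and 1183 after serum, and its wild-type means lay below the filter. The counts of higher genes in both states include Tfap2b and Epas1. With median centring, 4474 of 7549 calls after serum were higher in knockout cells, against 3400 of 7506 with the deposited scaling.

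Targets of hypoxia-inducible factors, the pathway that CITED2 restrains, went both ways. Of 20 tested, serum raised 3 in wild-type cells (4.14% of all probe sets were called), among them Vegfa, the vascular growth factor, from 2968 to 12531 (2.07 ± 0.113, limma adjusted p = 2.98e-06). It lowered 0, and 1 fell at an unadjusted p under 0.05. In knockout cells it raised 6 and lowered 4 (23.1% of all were called), and Vegfa went from 2893 to 6509 (1.17, adjusted p = 8.77e-05). Slc2a1, a glucose transporter, rose by 1.66 in wild-type and 1.40 in knockout cells, and Hk2, a hexokinase, by 1.21 and 1.32. The list medians were 0.08 and 0.09. The interaction called 2 lower, Vegfa (-0.91) and Edn1 (-1.72), the gene of endothelin, and 0 higher, with 2 higher at an unadjusted p under 0.05. Over all tested probe sets it called 2.69%. Between genotypes, 4 were higher and 8 lower in knockout cells before serum, and 3 higher and 9 lower after it, in each case 60% of the list against 47.6% and 50.2% of all tested probe sets. Adm, the gene of adrenomedullin, read 21.5 to 123 on the wild-type arrays, all below the filter, and 7478 to 13361 on the knockout arrays, through which alone it entered the test. Egln3, named here for its low wild-type signal, had wild-type means of 409 and 370, below the filter. Its knockout means were 2149 and 1799. The counts of higher genes in both states include Adm and Egln3. Ddit4, a stress gene, was lower by -2.51 before serum and by -3.59 after it, when its knockout mean of 387 lay below the filter. The 4 lowered by serum in knockout cells became 2 without starved knockout array 1 or 2 or without the first stimulated one, and 1 without stimulated knockout array 2 or with median centring. For the interaction, the lower calls became 0 without starved wild-type array 1, stimulated wild-type array 2, or stimulated knockout array 1 or 2, and 1 without starved wild-type array 2, starved knockout array 1 or stimulated wild-type array 1, and 1 was higher without starved knockout array 1. The 3 higher after serum became 5 without stimulated wild-type array 1 or with median centring.

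Coactivators and early targets of CREB, the factor through which CBP was found, included genes that rose in both genotypes. Of 13 tested, serum raised 6 and lowered 0 in wild-type cells, where 1 fell at an unadjusted p under 0.05, and raised 5 and lowered 2 in knockout cells. These were 46.2% and 53.8% of the list, against 4.14% and 23.1% of all tested probe sets. The limma medians were 0.64 and 0.45. Rgs2, named here for its low signals, was among the falls in knockout cells, with means of 816 when starved and 113 after serum. Its wild-type means were 84.2 and 23.4, so it entered the test only through starved knockout arrays. Gem, named for the same reason, rose in both genotypes. Its starved means of 163 in wild-type and 16.3 in knockout cells lay below the filter. Both genes are in the counts above. Fosl1, an AP-1 subunit, rose by 3.94 in wild-type and 5.02 in knockout cells. Ptgs2, the inducible cyclooxygenase, rose by 2.06 and 3.97, and Dusp1, a phosphatase of MAP kinases, by 1.84 and 3.91. The interaction called Dusp1 (2.07) and Ptgs2 (1.91) higher and Pde4b (-1.36), a phosphodiesterase, lower, while it called 2.69% of all tested probe sets. Of the 13, 3 were higher and 5 lower in starved knockout cells, or 61.5% against 47.6% of all tested probe sets. After serum 3 were higher and 3 lower, or 46.2% against 50.2%. Rgs2 is among the higher genes in both states, and Gem among the lower ones when starved. In starved cells Ptgs2 and Dusp1 were lower in knockout cells, by -2.65 and -1.55, while Pde4b was higher by 2.14. The 2 falls in knockout cells became 1 without starved knockout array 1 or 2 or without the first stimulated one. The lower interaction call became 0 without either starved wild-type array, starved knockout array 2, stimulated wild-type array 1 or stimulated knockout array 1, and 2 with an added constant 16 times as large.

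The enzymes that share the work of CBP and p300 and those that undo it went both ways with serum in knockout cells. By their brightest tested probe sets, Elp3, Kat2a, Hdac11 and Sirt7 fell and Kat7, Clock and Sirt1 rose. Over all tested probe sets, 4.14% were called for serum in wild-type cells. Of 11 acetyltransferases tested, serum changed 0 in wild-type cells by limma, with 1 up and 1 down at an unadjusted p under 0.05. In knockout cells it raised 2 and lowered 2, or 36.4% of the list against 23.1% of all tested probe sets. Elp3, the catalytic subunit of Elongator, fell by 0.70 on its brightest probe set and Kat2a, also called GCN5, by 0.48, while Kat7, which acetylates histones at replication origins, rose by 0.44. On their other probe sets, Elp3 gave -0.25 and -0.33 and Kat7 gave 0.10, none of them called. Those of Kat2a gave -0.45, which was called, and -0.28, which was not. In starved knockout cells 2 acetyltransferases were higher and 1 lower, or 27.3% against 47.6% of all tested probe sets. After serum 2 were higher and 0 lower, or 18.2% against 50.2%, with 2 lower at an unadjusted p under 0.05. Ncoa1, a steroid receptor coactivator that binds CBP and p300, was higher in knockout cells by 1.05 when starved and 1.38 after serum. Clock was lower by -0.64 when starved, but by -0.11 on its other probe set, which was not called. Of 11 deacetylases tested, serum lowered 2 and raised 0 in wild-type cells, or 18.2% against 4.14%, with 0 raised at an unadjusted p under 0.05. The 2 were Hdac11, at -0.65 on its brightest probe set, and Sirt3. The other Hdac11 probe set gave -0.20 and was not called. Sirt3 read 522 and 378 in starved and 135 and 104 in stimulated wild-type cells, and only the first of these reached the filter. In knockout cells serum raised 1, Sirt1, and lowered 2, Hdac11 (-0.50) and Sirt7 (-0.56), or 27.3% against the same 23.1%. Between genotypes, 2 deacetylases were higher and 2 lower in starved knockout cells, or 36.4% against 47.6% of all tested probe sets, and 4 were higher and 4 lower after serum, or 72.7% against 50.2%. The 4 higher after serum include Sirt3, whose stimulated wild-type signals of 135 and 104 lay below the filter. Of its stimulated knockout signals, 452 and 325, only the first reached the filter. Sirt1, a sirtuin that deacetylates histones and p53, rose from 1333 to 3434 in knockout cells (1.36 ± 0.174, adjusted p = 0.000546), and the interaction called it higher by 1.18. It was the 1 deacetylase called for the interaction, against 2.69% of all tested probe sets. Several of these counts moved with single arrays. The starved deacetylases became 1 higher without starved wild-type array 2 or starved knockout array 1, and 0 or 1 lower without starved wild-type array 1 or 2. The acetyltransferases raised in knockout cells became 1 without either starved and 0 without either stimulated knockout array, and those lowered became 1 without either stimulated knockout array or with median centring. The deacetylases lowered in wild-type cells became 0 without starved array 1 or stimulated array 2 and 1 without starved array 2 or stimulated array 1. Those lowered in knockout cells became 0 without stimulated knockout array 1 or with median centring, and 1 without stimulated knockout array 2 or with quantile normalization. The interaction count of 1 deacetylase became 0 without any single array other than starved knockout array 2, and without that array 1 was also lower.

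Of the genes near Cited1 on the X chromosome, Ogt was higher in knockout cells on all of its probe sets. By RefSeq order on GRCm38.p6, 12 neighbours were taken, 6 on each side, and 6 of them were tested. Ogt, which attaches N-acetylglucosamine to nuclear proteins, was higher in knockout cells, at 13907 and 14964 against 10097 and 10454 in starved cells (0.49 ± 0.109, limma adjusted p = 0.00435) and by 0.37 after serum (adjusted p = 0.0182) on its brightest probe set. The other 4 gave 0.79 to 1.28 in starved cells and 0.84 to 1.47 after serum, all called. Rps4x, a ribosomal protein gene and the neighbour with the nearest start, was higher by 0.47 in starved cells (adjusted p = 0.00679). Ercc6l, a DNA translocase of mitosis, was lower by -2.14 after serum (adjusted p = 0.00144), where its knockout signals of 90.8 and 277 lay below the filter. Cxcr3, Phka1 and Chic1 were tested and not called. By their brightest probe sets, the tested neighbours spanned -0.82 to 0.51 in starved cells, with a median of 0.30, where Cited1 differed by 7.83. Nhsl2 was not tested, but read 213 and 488 in starved and 230 and 417 in stimulated knockout cells against 3.72 to 35.2 in wild-type cells, with no overlap. Such separation, with knockout higher, was seen for 36% of tested probe sets in starved and 35.9% in stimulated cells. Between genotypes, 47.6% of all tested probe sets were called in starved and 50.2% in stimulated cells. By brightest probe set, after serum Ogt was the 1 neighbour called higher and Ercc6l the 1 called lower. The higher count became 0 without stimulated wild-type array 1 or 2 or the first stimulated knockout array, and 2 without either starved knockout array or with median centring. In starved cells 2 were called higher, and 1 was also called lower without either stimulated knockout array or with the added constant 16 times as large.

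**Figure D3:**
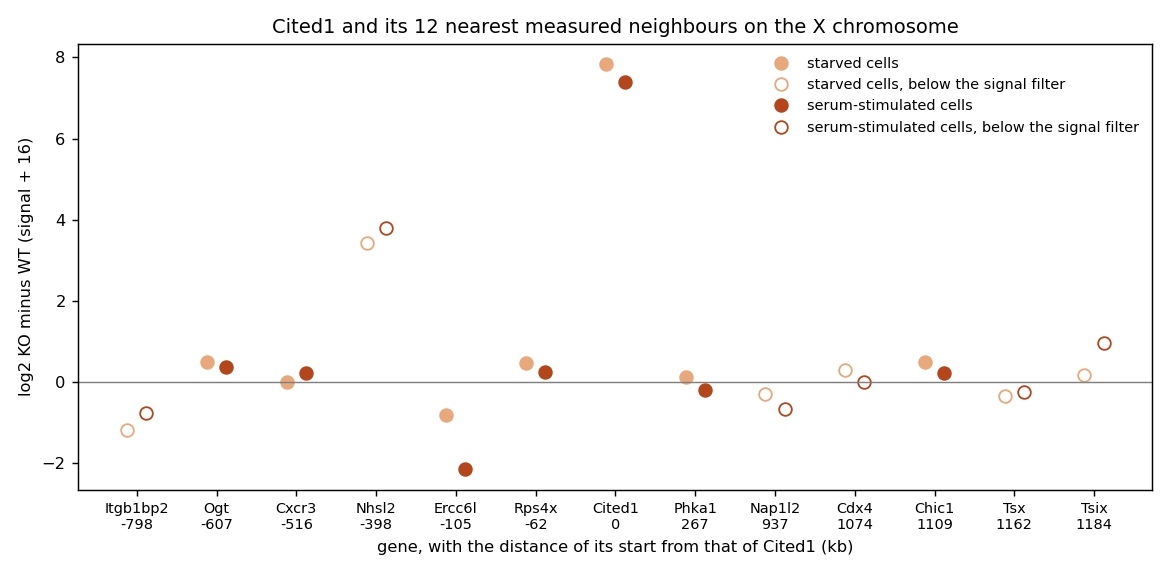
Knockout minus wild type (log2 scale) of Cited1 and its 12 nearest genes with a probe set of their own, each by its brightest probe set and in chromosome order, with the distance of each start from that of Cited1 in kb; filled points were tested, open points lie below the filter on low signals. Cited1 lies at 7.83 in starved and 7.39 in stimulated cells, the tested neighbours between -2.14 and 0.51.

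The profile of Cited1 over the 8 arrays was shared by probe sets of other genes. By the distance between centred log2 profiles, among 13795 tested probe sets naming a single gene, the nearest were Slit3 (0.521), Sfrp1 (0.656), Svep1 (0.997), Agt (1.02) and Ptn (1.11), with Pearson r from 0.995 to 0.999. Slit3, a secreted guidance ligand, read 39.7 and 32.5 in starved and 42.2 and 44.7 in stimulated wild-type cells, and 14522 and 13936 in starved and 9937 and 10008 in stimulated knockout cells. Sfrp1 encodes a secreted Wnt antagonist, Svep1 a large extracellular matrix protein, Agt angiotensinogen and Ptn the growth factor pleiotrophin. The Sfrp1 probe set here, at 7.74 in starved cells and 7.51 after serum between genotypes, was not its brightest. The brightest gave 5.10 and 5.17, and the remaining ones 2.51 to 5.72. Such correlations are set by the 2 genotypes that the arrays share, and 152 probe sets had r over 0.99. By Pearson correlation the nearest 5 were Sgce, Slit3, Nrk, Ehd3 and Frk, of which Slit3 alone was also among the 5 nearest by distance.

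**Figure D4:**
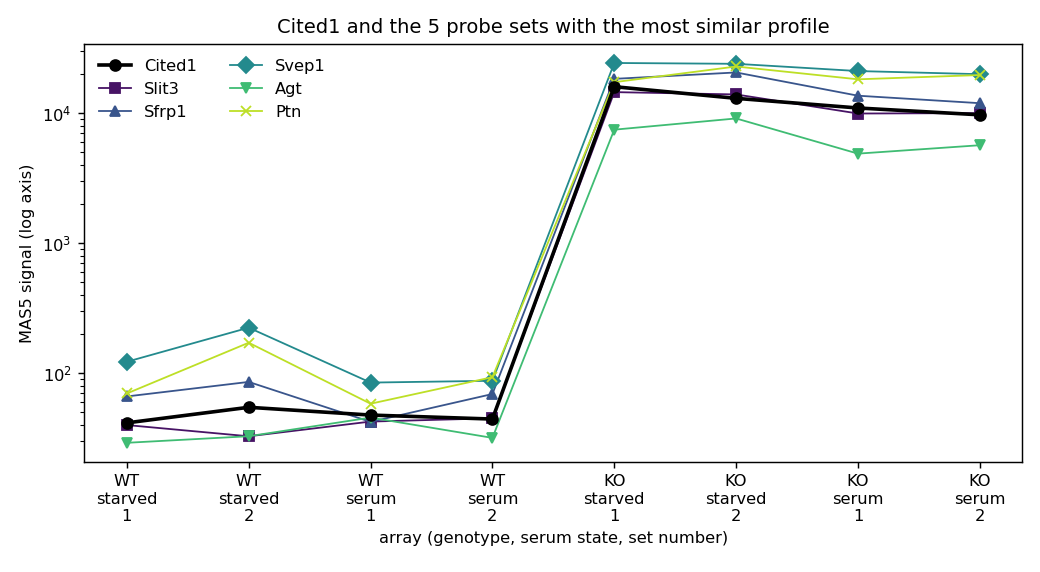
Signal on each of the 8 arrays (log axis) for Cited1 and the 5 probe sets with the nearest profiles. Slit3 reads 32.5 to 44.7 on wild-type and 9937 to 14522 on knockout arrays, as Cited1 reads 41.3 to 54.4 and 9712 to 15987.

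The knockout label was borne out by Med23, whose signal was 4901 and 5410 in starved and 3595 and 3577 in stimulated wild-type cells against 28.0 to 132 on the knockout arrays; whether its probe set lies within the deletion is not known. Fibroblast markers were present in both genotypes, 8 of 12 above the 40th percentile on all arrays and 2 below it on all, but their summed signal was 167654 to 188105 in wild-type and 289187 to 385629 in knockout cells, so it moved with Cited1. Within it, Pdgfra, a fibroblast receptor, read 13.3 to 129 in wild-type and 6040 to 15782 in knockout cells, while Dcn, the matrix protein decorin, read 4807 to 8105 and 2365 to 3500, and the ranges of Fn1, fibronectin, overlapped. Col1a2 read 581 and 743 on the wild-type arrays of set 1, 8871 and 9443 on those of set 2, and 62376 to 91077 in knockout cells, so the wild-type sets stood apart. These and the following genes were named after their values were seen. Of the cell types known for Cited1, kidney progenitor markers summed to 5594 to 7078 in wild-type and 7923 to 11150 in knockout cells, with 4 of 9 below the 40th percentile on all arrays and 2 above it on all. Six2, which defines those progenitors, was 1043 to 1467 in wild-type and 5696 to 6839 in knockout cells. Gdnf, also on that list, went the other way, at 905 to 2924 and 21.5 to 38.7, as did Sall1, at 235 to 488 and 20.1 to 47.4. Melanocyte markers summed to 3039 to 3377 and 3191 to 3525, with 6 of 9 below the 40th percentile on all arrays, and trophoblast markers to 1242 to 1645 and 1363 to 1733, with 5 of 7 below. Epithelial markers summed to 2346 to 2979 in wild-type and 1584 to 2343 in knockout cells, with 6 of 10 below. Signals of the Y-linked Eif2s3y were 1129 to 1866 in wild-type and 3305 to 4004 in knockout cells. The part of these marker differences in the values of Cited1, Cited2 and Crebbp was not tested.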

How the data were processed

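Total RNA was purified with Trizol and RNeasy columns, per the labels' protocols, and each of 8 samples was run on 1 array. The values the authors deposited are linear intensity for each probe set. MAS5 is the tool named, without version, per the submitters' processing notes; the sources used here do not give scaling, detection calls or build. The table held 22690 probe sets; 64 controls were left out, and of the other 22626, 20380 named 1 gene, 691 several and 1555 none in the annotation table, which can be old. Median signal per array was 765.6 to 924.4, and the 40th percentile 412.6 to 497.4. The number of arrays limits the precision.

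Probe sets at or above their array's 40th percentile on at least 2 arrays (14947) were analysed as log2(signal + 16), so changes of low signals are understated. Limma 3.58.1 (R 4.3.3) fitted the 4 group means over all 8 arrays, with eBayes and a mean-variance trend (4 residual and 6.07 prior degrees of freedom), and two-sided p-values were adjusted by Benjamini-Hochberg over all tested probe sets. A call is an adjusted p under 0.05; intervals are unadjusted at 95%. An exact permutation test of 2 against 2 arrays cannot give a p under 0.333. The procedure was tested on simulated data. Comparisons share arrays and are not independent. Genes in lists were represented by their brightest tested probe set.

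The members, lists and tests were chosen with earlier results of these data known. Named were all member probe sets, Med23, the 12 neighbours of Cited1, the 5 nearest profiles, genes from among the up to 3 called with the smallest adjusted p in each list and comparison, and markers. Not all of those up to 3 were named, so the named list genes are a selection. Genes outside this are said to be so. Alternatives were other added constants (1, 64 and 16 times the one used), quantile normalization, median centring, no filter or a 60th percentile filter, no trend, fewer arrays in the fit, a replicate block, the brightest probe set only, and leaving out each array. Set numbers were checked as pairs: deviations from the group means correlated at 0.214 between wild-type groups, 0.097 between knockout groups and -0.034 to 0.0056 between genotypes, so they were not taken to pair the samples. Figures were drawn with matplotlib 3.10.9.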

Additional observations from a re-analysis of the deposited data

Results flagged for a closer look

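The response to serum differed between the genotypes, by the interaction in limma with adjustment over all tested probe sets, for 10 of the probe sets described above. Over all tested probe sets, 2.69% were called for it. The value is the response in knockout minus that in wild-type cells on the log2 scale.

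For Cited2 it was 1.51 on the dimmer probe set (adjusted p = 0.0217), with a rise in both sets of knockout cells and a small fall in both sets of wild-type cells. On the brighter probe set it was 0.70 and was not called (adjusted p = 0.0884). The set numbers were not taken to pair the samples. Among the factors bound by CBP and p300 it was 1.36 for Cebpb (adjusted p = 0.00572) and 0.92 for Atf4 (adjusted p = 0.00925). Second probe sets of these genes were called in the same direction, at 1.62 and 1.77. Smad3 had a value of -1.11 (adjusted p = 0.0160), but -0.38 on another probe set, which was not called (adjusted p = 0.393).

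Among CREB targets it was 2.07 for Dusp1 (adjusted p = 0.0030), 1.91 for Ptgs2 (adjusted p = 0.00382) and -1.36 for Pde4b (adjusted p = 0.0207). A second probe set of Ptgs2 gave 2.76 and was called, and 1 of Pde4b gave -1.30 and was not (adjusted p = 0.189). Among hypoxia targets it was -0.91 for Vegfa (adjusted p = 0.0184), with -1.39 on a second, called probe set, and -1.72 for Edn1 (adjusted p = 0.0280). Sirt1, a deacetylase, had a value of 1.18 (adjusted p = 0.0373).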

How the results depend on the processing

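The genotype difference of Cited1 kept its direction throughout; with an added constant of 1, of 64 and of 16 times the one used it was 8.22, 7.02 and 5.59 in starved cells and 7.79, 6.56 and 5.13 after serum, and 7.55 after serum with median centring. For Cited2 on the dimmer probe set the interaction was 1.51 without a mean-variance trend but did not pass (adjusted p = 0.0820), and 1.24 to 1.79 without each array in turn. On the brighter probe set the interaction was 0.46 to 0.94 and the knockout response 0.58 to 0.68 without each array in turn. Members called for the interaction were 0 without the trend, 0 with the brightest probe set only and 0 to 2 without each array; for serum in knockout cells they were 1 with the brightest probe set only and 1 to 2 without each array. Over all tested probe sets, the interaction called 250 with no filter, 214 without the trend and 127 to 501 without each array in turn. Without each array, serum in knockout cells called 1573 to 3226 and in wild-type cells 316 to 699. With the set number as a replicate block, 634 probe sets were called for serum in wild-type cells, 3494 in knockout cells and 399 for the interaction, against 619, 3455 and 402; the member counts stayed at 0, 2 and 1, and the Cited2 interaction had adjusted p = 0.0206. No result reversed its sign among called values. Cited4 and the wild-type level of Cited1 lie too close to the bottom of the arrays for a change to be measured.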
